A study of Mus musculus with 8 samples.

Results

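The genes described here encode the fast and slow troponin chains and the striated tropomyosins, which were taken by name from a list of 9 genes: Tnni2, Tnnt3 and Tnnc2 for the fast troponin, Tnni1, Tnnt1 and Tnnc1 for the slow troponin, and Tpm1, Tpm2 and Tpm3. Of these, 8 had a row in a count table of 19857 genes, and 6 were among the 5066 genes with enough counts for a test. Tnnc1 was not analysed here. Tongues of PABPN1A17/+ mice (A17/+), which are heterozygous for the A17 allele of Pabpn1, were compared with tongues of wild type (WT) mice, with 4 female mice of 12 months per genotype. The protein PABPN1 coats poly(A) tails in the nucleus, and a longer alanine stretch in it underlies oculopharyngeal muscular dystrophy, in which eyelid and pharyngeal muscles weaken late in life. RNA was taken from sections of the middle of the whole tongue. It was counted with unique molecular identifiers by a method aimed at the poly(A) end. Each count stands for a captured molecule, and where the reads fell along a transcript was not tested. A value of a gene cannot tell apart fewer muscle cells from less RNA per muscle cell.

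Muscle contracts when calcium binds troponin on the actin filament. Troponin C binds the calcium, troponin I holds the actin and myosin interaction off in its absence, and troponin T ties the complex to tropomyosin, the coiled coil that lies along actin and covers the myosin binding sites. Fast and slow fibres use separate genes for each troponin chain. Fast fibres use Tnni2, Tnnt3 and Tnnc2, and slow fibres use Tnni1, Tnnt1 and Tnnc1, the last of which also serves the heart. Of the tropomyosin genes, Tpm1 gives the main alpha chain of fast fibres, Tpm2 the beta chain, and Tpm3 the slow alpha chain. All 3 tropomyosin genes also make non-muscle or smooth muscle forms by alternative exons. Counts were summed per gene here, so striated and other forms of a tropomyosin gene were not separated.

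The libraries held 395061 to 485326 counts in A17/+ and 205696 to 465014 in WT. Pabpn1 itself had 5 to 11 counts per A17/+ library and 4 to 15 per WT library. Counts summed per gene do not show the altered stretch. Ttn, the gene of the giant protein titin, took 4.71% to 7.16% of the counts in A17/+ and 5.43% to 6.62% in WT. All 12 fast fibre markers and all 10 tongue epithelium markers had a row in the table, as did 7 of 10 slow fibre markers. Counts of the slow markers ranged widely. Csrp3 had 245 counts in A17/+ and 131 in WT, and Myl2 had 2 in A17/+ and 0 in WT. The libraries A17/+ 1 and WT 1 were closer to each other than either was to any library of its own genotype (Pearson r of 0.927 across the log2 CPM of genes, which are not independent replicates). Counts of salivary gland markers came to 5 to 20 per A17/+ library, against 923 in WT 1 and 0 to 3 in each remaining WT library. Transcripts of the mitochondrial genome took 7.24% to 10.98% of the counts in A17/+ and 4.17% to 6.43% in WT. P-values rest on the spread between the mice of a genotype.

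The members lie apart in the mouse genome (build mm10, GENCODE release M21), except that Tnni2 (chromosome 7, 142441808 to 142444410, plus strand) and Tnnt3 (chromosome 7, 142498836 to 142516009, plus strand) are separated by 54.4 kb. Tnnc2 lies on chromosome 2 (164777161 to 164779967, minus strand) and overlaps Ube2c on the other strand. Tnnt3 overlaps Prr33, a noncoding gene on the other strand. The strand setting of the counting is not given in the sources used here, so the reads of these pairs may not have been separated. Ube2c had at most 36 counts in a library and Prr33 at most 25, whereas Tnnc2 had at least 502 and Tnnt3 at least 189. Tpm1 lies on chromosome 9 (67022590 to 67049406, minus strand), Tpm2 on chromosome 4 (43514711 to 43523765, minus strand) and Tpm3 on chromosome 3 (90072649 to 90100902, plus strand). Of the stretches of 50 bases in the last 300 bases of Tpm3 transcripts, 15.8% were also found in Tpm3-rs7, which had 1 count in all libraries together. None were shared with another gene for the other members.

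RefSeq promoter windows (build GRCm38.p6, 250 bases before to 50 after a start) were at hand for 7 members in 9 windows. Tnni2 and Tnnt3 were not among them. The upstream bases of Tnnc2, which was higher in A17/+, and of the upstream Tpm3 start, which was lower in A17/+ as a gene, are shown side by side. A short stretch of the Tpm1 window is shown because it holds the MCAT motif, the site that TEAD factors recognise in muscle genes. Upstream here means before the RefSeq start. In GENCODE M21, Tnnc2 and Tpm1 reach further upstream, to 164779967 and 67049406. Most of the printed Tnnc2 bases and all of the printed Tpm1 bases therefore lie inside the annotated gene. Capitals mark matches of the E-box CANNTG, the site of MyoD and related factors, and of MCAT, GGAATG. Both strands were searched, and no match of one overlapped a match of the other.
Tnnc2 upstream, chr2:164779745-164779984, minus strand: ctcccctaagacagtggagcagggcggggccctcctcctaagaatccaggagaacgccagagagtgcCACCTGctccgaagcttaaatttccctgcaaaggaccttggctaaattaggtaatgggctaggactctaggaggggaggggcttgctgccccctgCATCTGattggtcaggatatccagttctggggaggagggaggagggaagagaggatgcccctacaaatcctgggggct
Tpm3 upstream, chr3:90072401-90072640, plus strand: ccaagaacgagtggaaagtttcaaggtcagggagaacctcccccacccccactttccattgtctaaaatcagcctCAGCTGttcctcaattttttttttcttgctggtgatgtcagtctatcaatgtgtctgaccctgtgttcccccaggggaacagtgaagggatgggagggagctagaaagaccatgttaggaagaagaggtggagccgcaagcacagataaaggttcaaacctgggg
Tpm1 upstream, chr9:67049250-67049279, minus strand: gctgtcctaaGGAATGcggtcgcccccctg
Each of the 9 windows held at least 1 E-box, as did 72.3% of 32851 windows of this length over the genome. MCAT was found in the windows of Tpm1 and Tnnc1 and in 14.7% of all windows. The TATAAA motif, searched in the same way, was found in the Tnnt1 window and in 13.6% of all windows. MEF2 and CArG motifs, found in 3.19% and 1.63% of all windows, had no match in these 9. A match describes the letters only.

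Fast troponin T and C were higher in A17/+ tongue than in WT tongue, and fast troponin I did not pass the test. Both calls were lost, and the value of fast troponin C changed sign, when a trend with transcript length over all genes was removed (log2 fold changes of 0.48 for Tnnt3 and −0.29 for Tnnc2, with adjusted p of 0.157 and 0.432 by edgeR). Tnnt3, the fast troponin T, stood at 1761, 2824, 2574 and 2885 CPM in A17/+ 1 to 4, against 1433, 611, 1215 and 1170.3 CPM in WT 1 to 4 (CPM, the usual depth-scaled counts, here with TMM scaling). The lowest A17/+ library, A17/+ 1, was above the highest WT library, WT 1, and WT 2 was the lowest of all. The means were 2511 ± 518 CPM in A17/+ and 1107 ± 350.3 CPM in WT (SD, n = 4 each), and the edgeR log2 fold change was 1.18 (SE 0.231, adjusted p = 0.00686). The call held when each library was left out in turn, with adjusted p up to 0.0331.

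Tnnc2, the fast troponin C, had 3745, 4273, 3602 and 3814 CPM in A17/+ 1 to 4, against 2835, 1790.5, 2294.5 and 2719.9 CPM in WT 1 to 4. The genotypes did not overlap, and the A17/+ libraries lay close together. It averaged 3859 ± 290.1 CPM in A17/+ and 2409.9 ± 474 CPM in WT (SD, n = 4 each), a log2 fold change of 0.68 (SE 0.167, adjusted p = 0.0175 by edgeR). Leaving out A17/+ 4 gave an adjusted p of 0.0614, leaving out WT 2 gave 0.0592 and leaving out WT 3 gave 0.0771.

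Tnni2, the fast troponin I, had 2087, 3559, 3125 and 3153 CPM in A17/+ 1 to 4, against 2066, 1842, 1989.9 and 2628 CPM in WT 1 to 4. A17/+ 1 lay inside the WT range, and the other 3 A17/+ libraries lay above every WT library. The means were 2981 ± 628 CPM in A17/+ and 2131.5 ± 344 CPM in WT (SD, n = 4 each). The log2 fold change of 0.49 had a 95% interval from 0.10 to 0.87 and an edgeR adjusted p of 0.103 (unadjusted p = 0.0160). Without A17/+ 1 it was 0.57 with an adjusted p of 0.0262, and without both libraries numbered 1 it was 0.61 with an adjusted p of 0.0161.

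Of the 6 members tested, 5 passed the threshold of 0.05, 4 of them higher in A17/+ and 1 lower. Of all tested genes 8.94% passed, 6.34% higher and 2.61% lower. Without both libraries numbered 1, all 6 members passed, as did 1025 of 4907 genes. Only 3 members passed with the length trend removed, and likewise without A17/+ 4, without WT 2 or without WT 3. The members' median log2 fold change was 0.78, against 0.01 over all 5066 genes. The genotypes did not overlap for 4 of the 6, all higher in A17/+. Of all tested genes, 8.57% did not overlap and were higher, and 6.08% did not overlap and were lower. Scaling by library totals alone moved the median of all tested genes to −0.11, and the members' median was then 0.68. With the transcript length trend described further on removed, the members' median was 0.09, and it was −0.04 with the longest transcript of a gene as its length. The split of all calls was 321 higher and 132 lower. With scaling by library totals alone it was 279 higher and 289 lower, and with the length trend removed 257 higher and 236 lower.

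**Figure D1:**
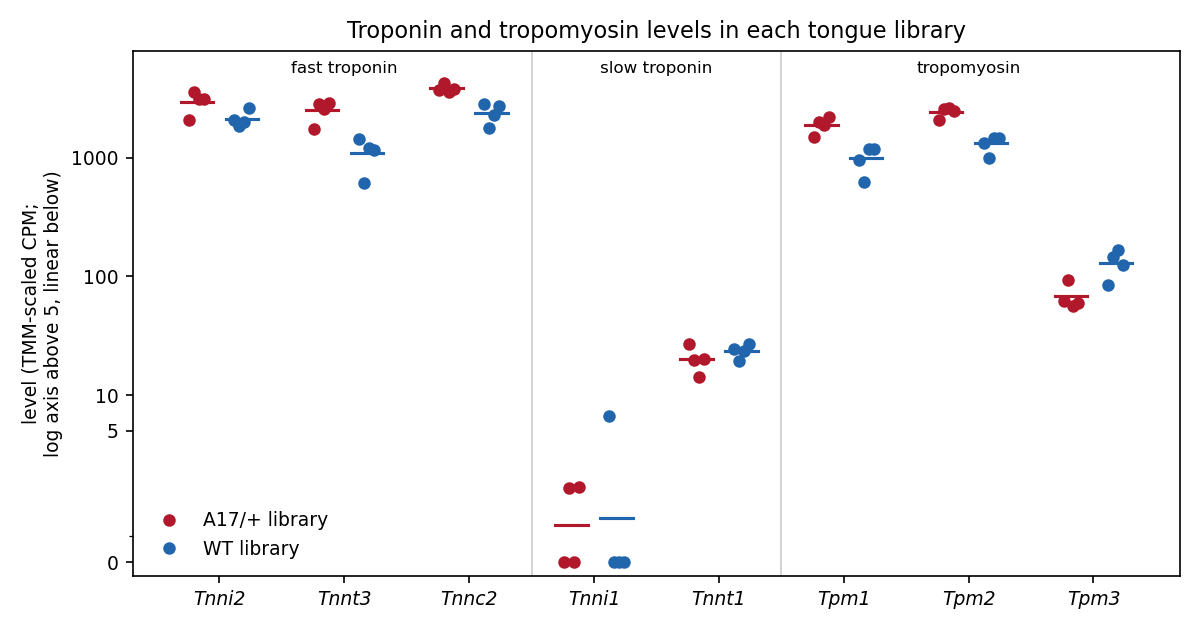
Level of each gene in TMM-scaled CPM (vertical axis, logarithmic above 5 and linear below) in every library, A17/+ in red and WT in blue, with a bar at the mean of 4 libraries. Tnnt3, Tnnc2, Tpm1 and Tpm2 have all A17/+ points above all WT points, Tpm3 lies lower in A17/+ with an overlap, and Tnni1 is at 0 in 5 of 8 libraries.

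The slow troponin chains were close to the detection limit in both genotypes. Tnni1, the slow troponin I, had 0, 1, 0 and 1 counts in A17/+ 1 to 4 and 3, 0, 0 and 0 counts in WT 1 to 4. These counts are at or under the floor of 3 counts, so no fold is given, and the two-sided exact permutation p was 1.00 (the smallest this design allows is 0.0286). Tnnt1, the slow troponin T, had 12, 7, 5 and 7 counts in A17/+ 1 to 4 and 11, 6, 7 and 5 in WT 1 to 4. It averaged 20.2 ± 5.17 CPM in A17/+ and 23.7 ± 3.20 CPM in WT (SD, n = 4 each; two-sided exact permutation p = 0.343). Both genes lay below the filter. In an edgeR fit without a filter the log2 fold change of Tnnt1 was −0.25 (SE 0.461, 95% interval from −1.15 to 0.65), so the direction was not resolved at this depth.

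The slow chains were a small part of the summed fast and slow troponin counts. Tnni1 took 0 of 936 troponin I counts in A17/+ 1, which allows a share of up to 0.321%, and 0 of 1106 in A17/+ 3, which allows up to 0.271%. In WT 2, WT 3 and WT 4 it took 0 of 570, 588 and 485 counts, which allows up to 0.526%, 0.510% and 0.619%. In the libraries where it was found, it took 0.0793% in A17/+ 2, 0.0903% in A17/+ 4 and 0.323% in WT 1. Each limit is 3 counts of the total, and the exact two-sided 95% upper bounds are somewhat higher, such as 0.393% in A17/+ 1 and 0.645% in WT 2. Limits and intervals cover counting error only.

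Of the summed counts of Tnnt1 and Tnnt3, Tnnt1 took 1.496%, 0.695%, 0.546% and 0.687% in A17/+ 1 to 4. In WT 1 to 4 it took 1.68%, 3.08%, 1.91% and 2.26%. Tnnt2, a further troponin T gene, is not in this sum. All A17/+ shares were below all WT shares, but the gap between A17/+ 1 and WT 1 was small beside their exact (Clopper-Pearson) 95% intervals, from 0.775% to 2.60% in A17/+ 1 and from 0.843% to 2.99% in WT 1. Tnnt1 itself had 31 counts in A17/+ and 29 in WT, whereas Tnnt3 was higher in A17/+, as given above. Shares of the fast genes were also taken over the 5 listed troponin genes with a row. They were 99.76% ± 0.0836 in A17/+ and 99.55% ± 0.0334 in WT (SD, n = 4 each). These shares are over genes chosen with results known and carry no test. Slow fibre markers other than the troponins were measured as well. Of 10, 7 had a row, 4 were tested, and 0 of these passed in either direction by edgeR, DESeq2, limma-voom or limma-trend, with a median log2 fold change of 0.71 (0.29 with the length trend removed). Myh7, Myh7b and Myl3 had no row here, so these values hold no slow myosin heavy chain. The summed level of the markers with a row was 397 to 463 CPM in A17/+ and 217 to 363 CPM in WT, without overlap. The highest means in that sum were those of Csrp3 (165 CPM in A17/+ and 107 in WT) and Atp2a2 (121 and 97.9 CPM). By unadjusted p under 0.05, 3 of the 4, Casq2, Myoz2 and Csrp3, were higher (log2 fold changes 0.82, 0.79 and 0.63). With the length trend removed these values were 0.75, 0.31 and −0.15. Myl2 and Myl6b had at most 3 counts in every library.

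**Figure D2:**
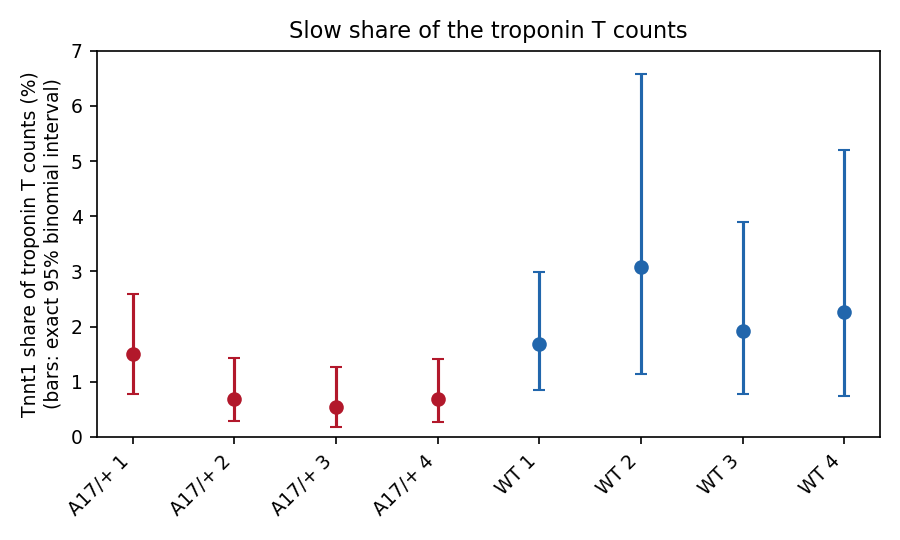
Share of Tnnt1 in the summed counts of Tnnt1 and Tnnt3 (vertical axis, percent) in each library, A17/+ in red at left and WT in blue, with exact 95% binomial intervals as bars. The A17/+ shares run from 0.546% to 1.496% and the WT shares from 1.68% to 3.08%, with wide intervals.

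The balance among the fast chains also differed in the values. Tnnt3 took 26.7% ± 2.58 of the counts of the 3 fast genes in A17/+ and 19.3% ± 3.86 in WT (SD, n = 4 each), with ranges of 23.2% to 29.3% and 14.4% to 22.6% that did not overlap. Tnni2 took 31.6% ± 2.85 in A17/+ and 38.1% ± 4.72 in WT, with ranges of 27.5% to 33.6% and 32.6% to 43.4% that overlapped. Tnnc2 took 41.7% ± 5.11 in A17/+ and 42.6% ± 1.45 in WT, and A17/+ 1 was the highest at 49.3%. For each count of Tnni2 there were 0.794 to 0.915 counts of Tnnt3 in A17/+ and 0.332 to 0.694 in WT. The same ratio for Tnnc2 was 1.15 to 1.79 in A17/+ and 0.972 to 1.37 in WT.

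Tpm1 and Tpm2 were higher in A17/+ tongue and Tpm3 was lower. Tpm1, which gives the fast alpha chain, had 1503, 1999.6, 1907 and 2209 CPM in A17/+ 1 to 4, against 958, 630.3, 1181 and 1192 CPM in WT 1 to 4. The genotypes did not overlap, with A17/+ 1 the lowest of its genotype and WT 2 the lowest of all. It averaged 1904.5 ± 296 CPM in A17/+ and 990.4 ± 263 CPM in WT (SD, n = 4 each), a log2 fold change of 0.95 (SE 0.196, edgeR adjusted p = 0.00822).

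Tpm2, the beta chain, had 2091, 2601, 2624.5 and 2459.9 CPM in A17/+ 1 to 4, against 1337, 999, 1475.5 and 1479 CPM in WT 1 to 4. Again every A17/+ library lay above every WT library. The means were 2444 ± 246 CPM in A17/+ and 1323 ± 226 CPM in WT (SD, n = 4 each), and the log2 fold change was 0.89 (SE 0.163, edgeR adjusted p = 0.00486). Both Tpm1 and Tpm2 held their call when each library was left out in turn, with adjusted p up to 0.0348 for Tpm1 and 0.0273 for Tpm2.

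Tpm3, which gives the slow alpha chain and non-muscle forms, had 28, 33, 20 and 21 counts in A17/+ 1 to 4, and 38, 45, 49 and 23 counts in WT 1 to 4. As levels these were 62.4, 93.2, 56.5 and 59.9 CPM in A17/+ and 84.7, 145, 166 and 125 CPM in WT. A17/+ 2, the highest of its genotype, was above WT 1, the lowest of its own, and the other libraries did not overlap. The means were 68.0 ± 16.98 CPM in A17/+ and 130.1 ± 34.7 CPM in WT (SD, n = 4 each), and the log2 fold change was −0.92 (SE 0.261, edgeR adjusted p = 0.0359). The call rests on few counts. It was lost when A17/+ 3 (adjusted p = 0.121), A17/+ 4 (0.0982), WT 2 (0.0750), WT 3 (0.120) or WT 4 (0.0532) was left out. With counts thinned to the smallest library it was 0.0610.

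Tropomyosin genes are not limited to striated muscle, so smooth muscle and pericyte markers are given beside them. All 12 of these markers had a row and 8 were tested, of which 2, Acta2 and Des (log2 fold changes 1.13 and 1.31), were higher and 0 were lower. Des is made by striated muscle as well. The list summed to 1797 to 2657 CPM in A17/+ and 1332 to 1792 CPM in WT. The median log2 fold change of the 8 was 0.74 (0.44 with the length trend removed), and by unadjusted p under 0.05, 4 were higher and 0 lower. The defining marker Myh11, smooth muscle myosin, had a log2 fold change of −0.17 (adjusted p = 0.564), and Cnn1 had at most 3 counts in a library. The tongue epithelium markers summed to 9439 to 18993 CPM in A17/+ and 12846 to 14208 CPM in WT, with 0 of 9 tested higher and 1, the desmosomal Dsp, lower (−0.85). By unadjusted p under 0.05, 2 were higher and 2 lower, by limma-trend 1 was higher, and by DESeq2 and limma-voom 0 were higher. Of 9 fibroblast markers, all tested, 4 were higher (1 by limma-voom) and 0 lower, and they summed to 1558 to 2632 CPM in A17/+ and 1151 to 1502 CPM in WT. The part of these cells in the tropomyosin values was not tested.

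The non-member Tpm4, a tropomyosin of non-muscle cells, averaged 282 ± 53.5 CPM in A17/+ and 383 ± 75.2 CPM in WT (log2 fold change −0.44, edgeR adjusted p = 0.157). Tnnt2, the troponin T of heart and developing muscle, averaged 35.6 ± 17.3 CPM in A17/+ and 75.1 ± 42.6 CPM in WT (log2 fold change −0.98, edgeR adjusted p = 0.151). Neither passed the test. With the length trend removed the log2 fold change of Tnnt2 was −1.61 (adjusted p = 0.0156). Myh3, the embryonic myosin, had 2 counts in each genotype. Tnnt2 and Myh3 are among 8 markers of developing or regenerating fibres. Of these 4 were tested, and 0 passed in either direction by edgeR (1 was higher by DESeq2). The others tested had log2 fold changes of 1.37 (Actc1, edgeR adjusted p = 0.0754), 0.31 (Ncam1) and 0.08 (Myh8).

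Within the summed counts of Tpm1, Tpm2 and Tpm3, Tpm3 took 1.55% ± 0.364 in A17/+ and 5.52% ± 2.02 in WT (SD, n = 4 each). Tpm4 is not in this sum. Its A17/+ range of 1.23% to 1.99% lay below its WT range of 3.56% to 8.20%. Tpm1 took 43.0% ± 2.56 in A17/+ and 40.1% ± 3.19 in WT, and Tpm2 took 55.5% ± 2.44 in A17/+ and 54.4% ± 2.12 in WT. Both pairs of ranges overlapped, and the difference for Tpm2 was smaller than either SD. The 3 tropomyosin genes together took 0.385% ± 0.0321 of all counts in A17/+ and 0.233% ± 0.0351 in WT, and the fast troponin genes took 0.814% ± 0.0822 in A17/+ and 0.539% ± 0.0759 in WT. Neither pair of ranges overlapped.

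**Figure D3:**
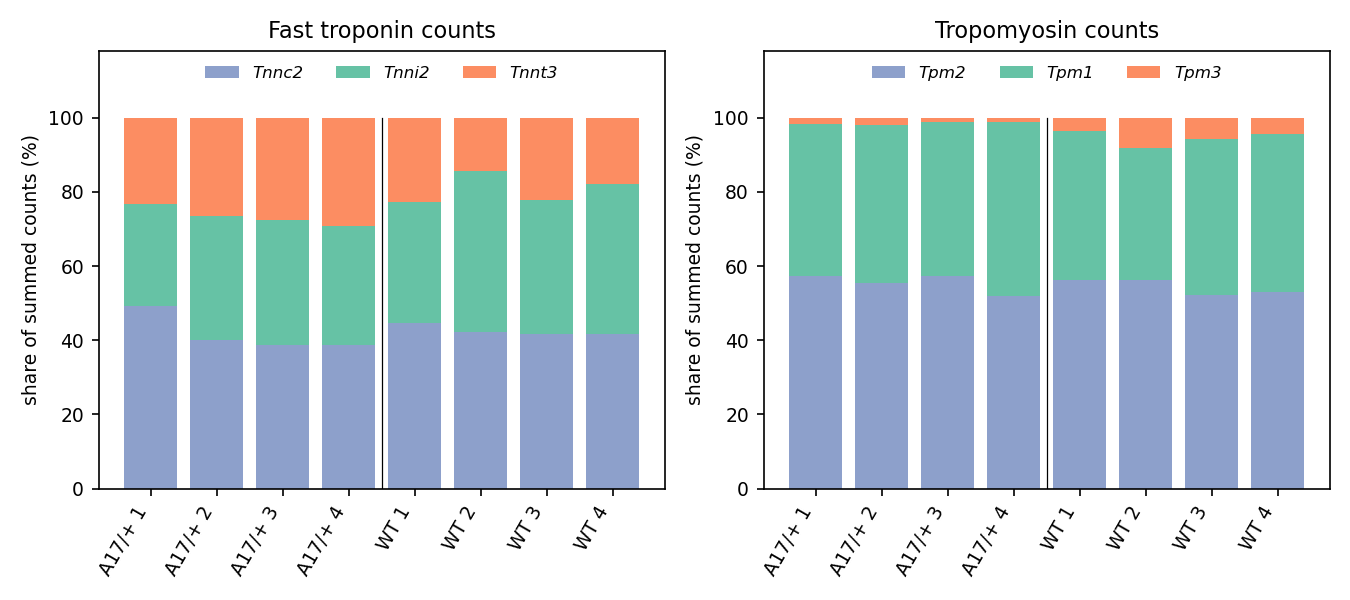
Share of each gene in the summed counts (vertical axis, percent) of the fast troponin genes at left and of Tpm1, Tpm2 and Tpm3 at right, as stacked bars for each library with A17/+ left of WT. The Tnnt3 part is 23.2% to 29.3% in A17/+ and 14.4% to 22.6% in WT, and the Tpm3 part is 1.23% to 1.99% in A17/+ and 3.56% to 8.20% in WT.

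Levels between genes were compared as CPM per kilobase of the median annotated transcript. In A17/+ the order was Tnnc2 (5512 ± 414), Tnni2 (3974 ± 837), Tnnt3 (2479 ± 511), Tpm2 (1165 ± 117), Tpm1 (1160 ± 180.4), Tpm3 (31.0 ± 7.75), Tnnt1 (21.6 ± 5.53) and Tnni1 (1.37 ± 1.58). In WT the order was the same: Tnnc2 (3443 ± 677), Tnni2 (2842 ± 458), Tnnt3 (1093 ± 346), Tpm2 (630.4 ± 108), Tpm1 (603 ± 160.3), Tpm3 (59.4 ± 15.8), Tnnt1 (25.3 ± 3.43) and Tnni1 (1.61 ± 3.22). Tpm1 and Tpm2 differed by less than their SD in both genotypes, and Tnnc2 and Tnni2 by less than the larger SD in WT. Whether counts grow with transcript length in these libraries was not tested, so this order depends on the scale. On CPM without division by length, Tnnt3 averaged above Tpm2 in A17/+ (2511 against 2444) and below it in WT (1107 against 1323). Both of these gaps were smaller than the SD of Tnnt3.

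The fold change between genotypes fell with annotated transcript length over all tested genes, and the fast troponins have short annotated transcripts. Among the 165 tested genes under 800 nt the median log2 fold change was 1.30 and 42.4% were higher in A17/+ past the threshold. From 800 to 1200 nt the median was 0.43 and 23.0% were higher, from 1200 to 1800 nt 0.20 and 13.2%, and from 1800 to 2500 nt 0.04 and 6.38%. Tnnc2 has a transcript of 700 nt and Tnni2 a median of 750 nt, and their log2 fold changes of 0.68 and 0.49 were below the median of genes under 800 nt. Tnnt3, at 1013 nt and 1.18, was above the median of its class, as were Tpm1 at 1642 nt and Tpm2 at 2098 nt. Tpm3, at 2190 nt, lay on the other side of 0 from its class.

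**Figure D4:**
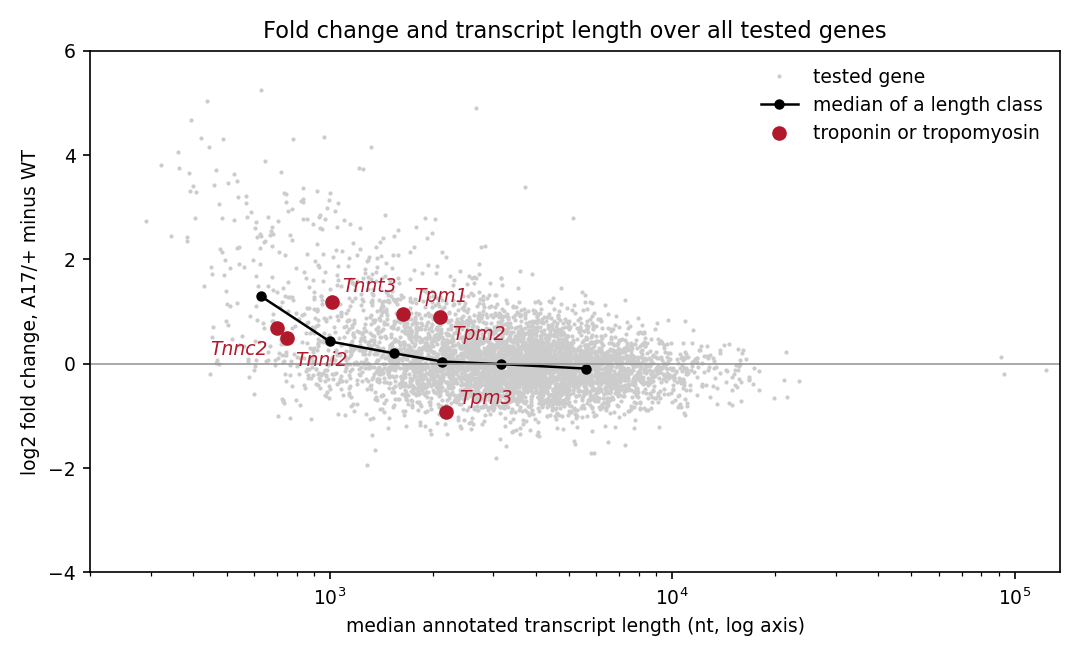
Log2 fold change, A17/+ minus WT (vertical axis), against median annotated transcript length (horizontal axis, nt, logarithmic) for every tested gene in grey, with the median of 6 length classes in black and the troponin and tropomyosin genes in red. The class medians fall from 1.30 under 800 nt to −0.09 at 4000 nt and above; Tnnc2 and Tnni2 lie under the line and Tnnt3, Tpm1 and Tpm2 over it.

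With the length trend removed from each library, Tnnt3 and Tnnc2 no longer passed, Tnni2 again did not, and the tropomyosins did. The trend itself amounted to 1.00 in log2 at the length of Tnnc2, 0.94 at that of Tnni2, 0.68 at that of Tnnt3, 0.28 at that of Tpm1, 0.14 at that of Tpm2 and 0.12 at that of Tpm3. After its removal the log2 fold changes were −0.29 for Tnnc2 (adjusted p = 0.432), −0.50 for Tnni2 (adjusted p = 0.0914) and 0.48 for Tnnt3 (adjusted p = 0.157). Tpm1 kept 0.66 (adjusted p = 0.0370), Tpm2 0.74 (adjusted p = 0.00751) and Tpm3 −1.05 (adjusted p = 0.0160), all by edgeR. With the longest transcript of a gene in place of the median, an alternative chosen after seeing the data, Tnni2 was lower in A17/+ past the threshold (−0.65, adjusted p = 0.0379). The direction of Tnnc2 and Tnni2 therefore depends on whether this trend is removed, and its cause was not tested. By library, the trend at the length of Tnnc2 was −0.14 in A17/+ 1 and 0.94, 0.59 and 0.62 in A17/+ 2 to 4, against −0.33, −0.37, −0.58 and −0.73 in WT 1 to 4.

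**Figure D5:**
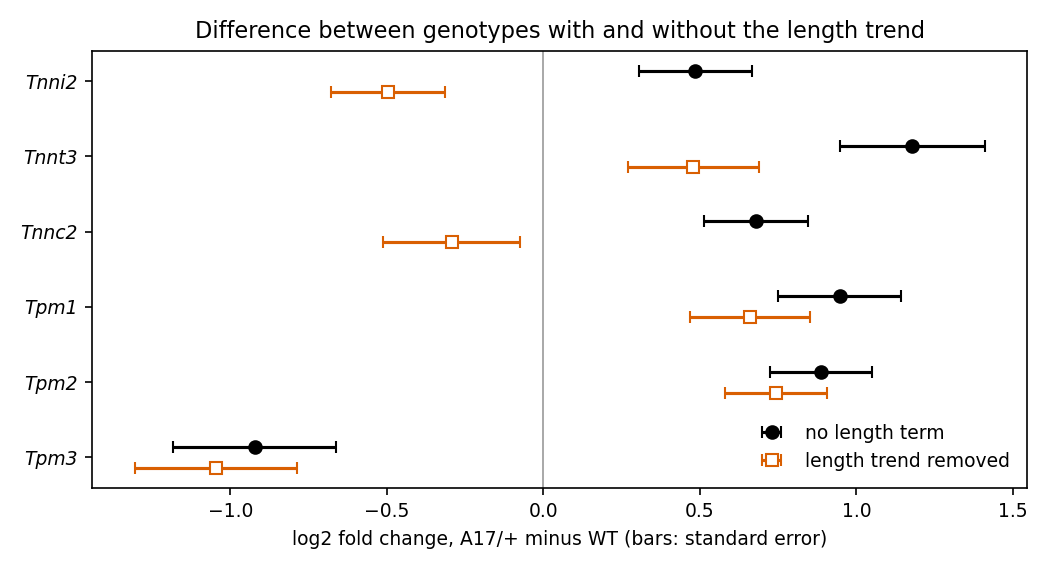
Log2 fold change, A17/+ minus WT, with its standard error (horizontal axis) for the 6 tested members, as fitted (black circles) and with the length trend of each library removed (open squares). Tnni2 and Tnnc2 move from 0.49 and 0.68 to −0.50 and −0.29, and Tpm1, Tpm2 and Tpm3 keep their sign.

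Other genes that build, cap or regulate the thin filament were higher in A17/+ for a part of the list. The list of 19 also holds the thick filament proteins Mybpc1, Mybpc2 and Mybph, and Mybpc2 is among the fast fibre markers too. Of 18 tested, 6 were higher (3 by limma-voom) and 0 lower, with a median log2 fold change of 0.89, and with the length trend removed 6 were higher and 1 lower, with a median of 0.64. Acta1, skeletal actin, averaged 3719 ± 1257 CPM in A17/+ and 1156 ± 106 CPM in WT (log2 fold change 1.68, adjusted p = 0.00187). Nrap, which takes part in the assembly of thin filaments, had a log2 fold change of 0.96 (adjusted p = 0.00486). Klhl41, a stabiliser of nebulin and thin filaments, had 1.05 (adjusted p = 0.00905), and Tmod1, the cap of the pointed end, had 1.64 (adjusted p = 0.0269). Neb, the giant protein along the thin filament, which was chosen after its value was seen, had 0.23 (adjusted p = 0.422).

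Markers of fast fibres were given the same test. Of 12, all tested, 8 were higher (5 by DESeq2 and 5 by limma-voom) and 0 lower, with a median log2 fold change of 0.88, and 7 were higher and 0 lower with the length trend removed, with a median of 0.83. Their summed level was 36612 to 43044 CPM in A17/+ and 24557 to 35429 CPM in WT. Mylpf, the fast regulatory light chain with a median transcript of 709.5 nt, followed the pattern of Tnnc2 and Tnni2. Its log2 fold change was 0.64 (adjusted p = 0.0483), and −0.40 with the length trend removed (adjusted p = 0.226). Myl1 (838.5 nt) and Pvalb (965 nt) did not follow it, with log2 fold changes of 1.76 and 4.35. With the length trend removed they had 0.84 and 3.64 (adjusted p = 0.0148 and 0.000765 by edgeR). Pvalb had 154 counts in A17/+ and 6 in WT. The fast myosins Myh4, Myh1 and Myh2 had log2 fold changes of −0.01 (18152 ± 2062 CPM in A17/+ and 18267 ± 2531 CPM in WT), 0.52 and 0.43, and Casq1, a calcium store protein, had 0.14, none of them past the threshold (adjusted p = 0.983, 0.102, 0.515 and 0.709 by edgeR). The fast fibre genes named here were chosen after their values were seen.

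Likeness of profile was measured as the root mean square difference of centred log2 CPM over the 8 libraries, in log2 units, among the 5066 tested genes. Tnni2 was nearest to Mylpf (0.124), to Atp5b, the beta chain of ATP synthase (0.126), and to Aldoa, an aldolase (0.137). Tnnt3 was nearest to Ak1, an adenylate kinase (0.165), Pygm, muscle glycogen phosphorylase (0.167), and Trim63, a muscle ubiquitin ligase (0.175). Tnnc2 was nearest to Rab12, a small GTPase (0.125), Chchd3, of the mitochondrial inner membrane (0.134), and the gene 9530068E07Rik (0.135). Tpm1 and Tpm2 were each the gene ranked 2 for the other (0.140). Tpm1 was nearest to Mylk2, the skeletal myosin light chain kinase (0.124), with Timp4, a metalloproteinase inhibitor, in place 3 (0.169). For Tpm2, Pea15a was in place 3 (0.149). Tpm3 was nearest to Gpank1 (0.135), to Evpl, envoplakin of the epithelial envelope (0.136), and to Kdm2b, a histone demethylase (0.138).

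The fast chains were not each other's nearest genes. Among the neighbours of Tnni2, Tnnc2 ranked 105 and Tnnt3 ranked 2047, although Tnni2 and Tnnt3 lie 54.4 kb apart. Among those of Tnnt3, Tpm1 ranked 10 and Tpm2 ranked 21, ahead of Tnnc2 at 83 and Tnni2 at 289.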

How the data were processed

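The authors deposited raw counts per Ensembl gene for 8 tongue libraries made with mcSCRB-seq, which marks molecules with unique identifiers, per the labels' protocols. The submitters' processing notes name cutadapt 2.10, STAR 2.7.5a, UMI-tools 1.1.1, HTSeq and build mm10. The strand setting and the annotation release are not given in the sources used here. The deposited log2 values of 10709 genes per library, which fitted log2 CPM with a prior count to within 4.38e-08, served in alternatives only.

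Symbols, positions and lengths came from GENCODE M21 (19675 genes matched); a length is the median over basic transcripts. Genes were filtered with filterByExpr (minimum count 10, minimum total 15), scaled by TMM and tested with edgeR 4.0.16 (R 4.3.3), by its robust quasi-likelihood fit on genotype alone. P-values were adjusted over all tested genes by Benjamini and Hochberg. Levels are CPM over the tested genes' TMM-scaled totals. Genes below the filter had a two-sided exact permutation test of log2(CPM + 1) over 70 assignments (SciPy 1.17.1). The length trend was a loess (span 0.5) per library, entered as an offset. Named were all members, up to 4 thin filament genes with the smallest p among those that passed, and the 3 nearest genes of each tested member, of which 1 is not reported here. The members and lists were chosen with earlier results of these data known. The fit was tested on simulated data. Alternatives used DESeq2 1.42.0, limma 3.58.1, other scalings and filters, thinning, a replicate block, no mitochondrial transcripts and libraries left out.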

Additional observations from a re-analysis of the deposited data

Results flagged for a closer look

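In 8 of 54 groups of 4 libraries examined, a library stood far from the other 3 of its genotype. The cut-off is passed by about 1 group in 20 of independent, normally distributed values. Several of the 8 groups use the same counts, and counts near the floor need not keep this rate. The number of groups is therefore not read as an excess. Tpm3 was 93.2 CPM in A17/+ 2 and 56.5 to 62.4 CPM in the other A17/+ libraries, and without A17/+ 2 its log2 fold change was −1.11 (edgeR adjusted p = 0.0161). Tnni1 was 6.69 CPM in WT 1, from 3 counts, and 0 in the other WT libraries, so that its share of troponin I counts there was 0.323%. Tnnt1 took 1.496% of the summed Tnnt1 and Tnnt3 counts in A17/+ 1 and 0.546% to 0.695% in the other A17/+ libraries. Tnnc2 took 49.3% of fast troponin counts in A17/+ 1 and 38.7% to 40.1% in the other A17/+ libraries, and it took 44.8% in WT 1 and 41.7% to 42.2% in the other WT libraries. Salivary gland markers summed to 2057 CPM in WT 1 and to 0 to 10.2 CPM in the other WT libraries. Markers of developing fibres summed to 293 CPM in WT 4 and to 162 to 169 CPM in the other WT libraries. No cause of these values was tested.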

How the results depend on the processing

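Tpm1 and Tpm2 kept their direction and their call under all 22 alternatives run, those with a library left out included. The number of members past the threshold, 5, was 3 with the length trend removed and 3 to 6 with each library left out (3 without A17/+ 4, WT 2 or WT 3). With the length trend removed, the log2 fold changes were −0.50 (Tnni2), −0.29 (Tnnc2) and 0.48 (Tnnt3), and with the longest transcript −0.65, −0.45 and 0.37. Tpm3 had −0.86 with thinned counts and −0.89 with limma-voom, both short of the threshold, and −1.14 to −0.80 with each library left out. Tnni2 had 0.61, past the threshold, without both libraries numbered 1, and 0.37 to 0.57 with each library left out. Tnnc2 had 0.52 to 0.73. The cause of these changes was not tested.

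Of all tested genes, 453 differed (321 higher, 132 lower). The counts were 853 (615, 238) without a filter, 228 (145, 83) with limma-voom, 797 (538, 259) with limma-trend on the deposited values and 1025 (695, 330) without both libraries numbered 1. Lower genes numbered 289 with library totals only, 236 with the length trend removed and 249 with the longest transcript. With each library left out the counts were 210 to 890 in all, 172 to 586 higher and 38 to 383 lower, with 771 without A17/+ 1, 247 without A17/+ 3, 232 without A17/+ 4, 890 without WT 1 and 210 without WT 3. Lower genes numbered 226 without A17/+ 2 and 69 without WT 2.

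By deviations from the genotype means, the replicate numbers did not pair the libraries. The correlation of deviations was 0.00406, 0.0719, −0.104 and −0.159 for numbers 1 to 4, and 0 of the 8 libraries correlated best with its own number. Before those means were removed, A17/+ 1 and WT 1 were each closest to the other (Pearson r of 0.927). For number 1 the check therefore does not settle pairing. With the replicate block 410 genes passed, and each of the 6 members stayed on its side of the threshold. The share of Tnni1 in troponin I counts, −0.038 percentage points between genotypes, was −0.065 to 0.042 with each library left out, with the positive value without WT 1, and 0.057 without both libraries numbered 1. The other shares moved by less than 1 SD between libraries. No share with Tnni1 could be computed from the deposited log2 values. Depth limits the slow chains most, at 0 to 12 counts per library.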
